A study of Oryctolagus cuniculus with 6 samples.

Results

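Genes that carry, make and sense retinoic acid were examined by RNA-seq in primary limbal stem cells (LSCs), the epithelial cells that grow out of rabbit limbal explants. The set holds 9 of the 22190 genes in the table, found by their symbols. These were RBP4 and STRA6 for retinol transport, DHRS3, ALDH1A1 and ALDH1A3 for metabolism, CRABP1 and CRABP2 for binding inside the cell, and the receptors RARB and RARG. All 9 passed the filter on low counts, as did 15029 genes in all. The set was proposed with the differences between the groups already in view, so its fold changes are given below as a description and without a p value.

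The fresh group (n = 3 libraries) came from rabbit corneas that were neither frozen nor treated with a cytokine. For the preconditioned group (n = 3 libraries), whole corneas were stored for 7 days in liquid nitrogen in a freezing medium of DMEM/F12, fetal bovine serum and dimethyl sulfoxide that also held 10 ng/mL IL-1β, an inflammatory cytokine. Since every preconditioned cornea was both frozen and exposed to IL-1β, effects of the one and the other cannot be told apart here. The methods describe limbal explants coated with serum and grown in keratinocyte medium, with no sorting of the outgrowth. Strain, sex and age of the rabbits, and which animal gave which library, are not given in the sources used here, so the spread below is that between these libraries, which may be partly technical.

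Retinol, the transport form of vitamin A, travels in blood on RBP4 and can enter cells through the membrane receptor STRA6. Inside the cell it is oxidised reversibly to retinal, in which RDH10 works forward and DHRS3 backward, and the ALDH1A enzymes then oxidise retinal to retinoic acid. CRABP proteins hold retinoic acid in the cytosol, RAR receptors paired with RXR act on its target genes, and CYP26 enzymes break it down. On the ocular surface the pathway is known for keeping the epithelium moist and non-keratinised, and lack of vitamin A leads to xerophthalmia. In the rabbit cornea, ALDH1A1 is also known as an abundant soluble protein, a corneal crystallin, of stromal keratocytes and epithelium.

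The libraries held 31952352 to 34327534 counts on genes, and levels are given as CPM (counts scaled to a common library total, with edgeR's TMM factors). Calls come from edgeR's quasi-likelihood test and needed 2 limits to be met, an adjusted p (Benjamini-Hochberg, over the 15029 genes) no higher than 0.05 and a log2 fold change of 1 or more in either direction. By that rule 344 genes (2.29%) were called in either direction, and the groups did not overlap for 5510 genes (36.7%). On the first principal component, preconditioned replicate 1 lay at 8.13, between the fresh libraries at −53.1 to −41.1 and the other preconditioned libraries at 58.3 and 70.4. The number of called genes was 1546 without preconditioned replicate 1 and 14 to 72 without any one of the other 5 libraries.

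The label of the cells was checked against marker genes. KRT5, at 9601 ± 1156 CPM in fresh and 9320 ± 2234 CPM in preconditioned libraries (mean ± SD, n = 3 per group), and the gene described as keratin 14, at 5923 ± 396 and 8456 ± 2046 CPM, had the most counts among the 8 epithelial markers found of 9 listed. KRT3, a keratin of differentiated corneal epithelium, came next with 1342 and 579 CPM on average. The 8 markers summed to 16060 to 19000 CPM in the fresh libraries and to 15340 to 23630 CPM in the preconditioned ones, and none of them was called by edgeR or by DESeq2, with 4 at an unadjusted p under 0.05 in edgeR. Of these 4, the keratin 14 gene, PAX6 and EPCAM had positive log2 fold changes (0.51, 0.81 and 0.50, with edgeR adjusted p = 0.131, 0.112 and 0.0601), and TP63, the transcription factor of epithelial progenitors, had a negative one (−0.77, adjusted p = 0.0588). For EPCAM and TP63 the groups did not overlap. TP63 had 226 to 246 CPM in the fresh libraries and 112 to 183.5 CPM in the preconditioned ones. KRT15, a marker of limbal basal cells, stood at only 3.56 and 4.03 CPM, and KRT12 was not analysed here.

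Markers of stromal fibroblasts had fold changes of either sign. Over both groups together, VIM, COL1A1 and COL1A2 were the highest of the 11 markers in CPM. In the fresh group alone, DCN and COL3A1 stood above COL1A2 and COL1A1 on average. The 11 summed to 546 to 1175 CPM in the fresh libraries and to 1316 to 2359 CPM in the preconditioned ones. Without COL1A1, in a sum chosen after seeing the data, the other 10 held 489.5, 733 and 1067 CPM in fresh replicates 1 to 3. In the preconditioned libraries they held 811 to 1667 CPM, so the groups overlapped only through fresh replicate 3. The median log2 fold change of the 11 was 0.44, beside 0.01 for all tested genes. Of the 11, 7 had a positive and 4 a negative log2 fold change, and COL1A1 alone was free of overlap and called (log2 fold change 2.66, adjusted p = 0.0153 from edgeR), whereas KERA, which marks keratocytes, had 4.86 ± 3.44 and 2.01 ± 1.08 CPM (SD, n = 3 each) and was not called. The 5 immune markers (CD68 far above CSF1R and CD74) summed to 95.8 to 131 CPM in the fresh libraries and to 123 to 307 CPM in the preconditioned ones, with CD3E at no more than 0.0097 CPM on average. All 4 that could be tested had positive log2 fold changes, and CD68, at 121, 299.6 and 288 CPM in preconditioned replicates 1 to 3 against 93.4 to 129 CPM in the fresh libraries, was called by DESeq2 and not by edgeR (log2 fold change 1.14, edgeR adjusted p = 0.0848). Of the preconditioned libraries, replicate 1 was nearest to the fresh ones in CD68, as it was in DHRS3 and RARB. The immune markers PTPRC, CSF1R and CD74, at preconditioned means of only 0.69, 2.24 and 1.08 CPM, were instead highest in replicate 2. The part of immune cells in the values of DHRS3 and RARB was not tested. The 6 conjunctival markers, KRT19, KRT7 and MUC1 the highest in CPM, summed to 2731 to 4967 and to 2071 to 4894 CPM. Endothelial markers (PECAM1, CDH5 and KDR the highest of 4) summed to 2.5 to 3.13 and to 1.03 to 13.1 CPM, and the 3 Schwann cell markers found, S100B and SOX10 among them, to at most 1.86 CPM in any library. Of the pigment and ciliary epithelium list, BEST1 was called at 879 and 2490 CPM on average, while DCT, PMEL, MLANA and TYR were at 0.18 CPM or less. What part other cell types had in the values below was not tested. In such bulk libraries, fewer cells of a type and less RNA per cell cannot be told apart.

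Levels of the 9 genes were compared with each other in FPKM, which divides by gene length. ALDH1A1 was by far the highest, at 570 ± 44.2 FPKM in the fresh and 1029 ± 337 FPKM in the preconditioned group (SD, n = 3 each), which placed it at rank 133 and rank 78 of all 22190 genes. CRABP2 followed at 144 ± 15.5 and 267 ± 74.8 FPKM, and RARG was next at 55.7 ± 9.01 and 41.4 ± 6.69 FPKM. After these came CRABP1 in both groups, at 23.0 ± 14.1 and 19.9 ± 9.94 FPKM. The first 5 levels of the fresh group, including RBP4 at 9.46 ± 0.734 FPKM, were separated from the next level in every library, whereas DHRS3, STRA6, RARB and ALDH1A3, at means of 5.24 to 2.32 FPKM, overlapped each with its neighbour. In the preconditioned group only the first 3 levels were separated from the next, DHRS3 (11.5 FPKM) stood above RBP4 (5.92 FPKM), and RARB (3.60 FPKM) above STRA6 (2.62 FPKM), each within the spread of its neighbour.

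**Figure D1:**
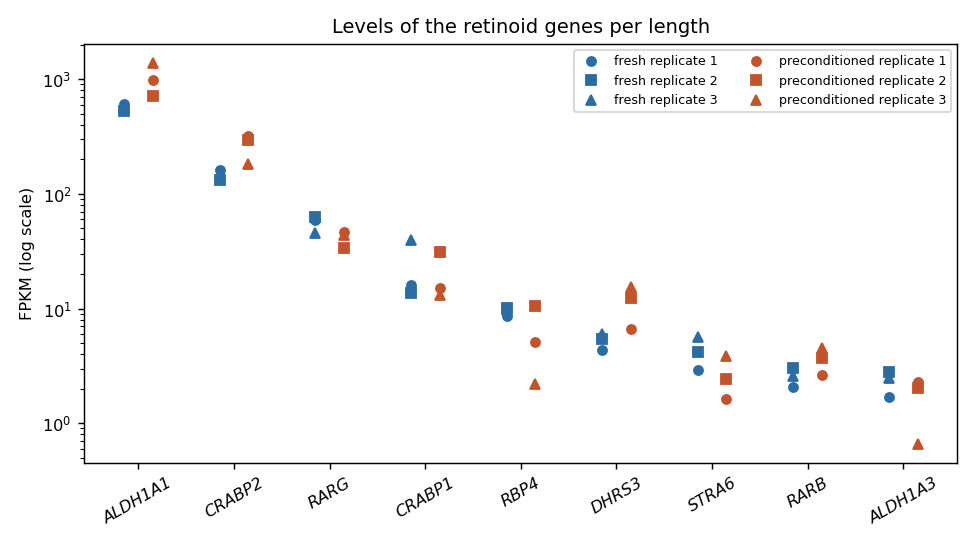
FPKM on a log axis for the 9 retinoid genes, ordered by their mean in the fresh group, with 1 point per library (blue, fresh; orange, preconditioned). ALDH1A1, CRABP2 and RARG are the 3 highest in both groups, and the preconditioned libraries spread widely for RBP4 and ALDH1A3.

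In retinol transport, RBP4, the plasma carrier of retinol, had 8.46, 9.82 and 9.33 CPM in fresh replicates 1 to 3 and 5.42, 11.9 and 2.37 CPM in preconditioned replicates 1 to 3. The fresh libraries lay close together, while the preconditioned ones fell on both sides of them. The lowest value rested on 72 counts, with an exact Poisson 95% interval of 56.3 to 90.7 that covers counting error only, against 178 and 371 counts in the other preconditioned libraries. On the log2 scale the fold change was −0.49 (standard error 0.52), and it was −0.09 without preconditioned replicate 3 and −1.24 without preconditioned replicate 2.

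STRA6, the retinol receptor, had 13.8, 19.4 and 26.5 CPM in the fresh libraries and 8.28, 13.1 and 20.0 CPM in the preconditioned ones. Its ranges overlapped between the groups (log2 fold change −0.53 ± 0.36 SE), and the value ran from −0.27 without fresh replicate 3 to −0.90 without preconditioned replicate 3. LRP2, an endocytic receptor that takes up retinol with its carrier, passed the filter on low counts but had under 1 CPM in both groups.

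Among enzymes between retinol and retinal, DHRS3, which returns retinal to retinol and is known as a gene that retinoic acid induces, had the largest fold change in size of the set. It had 8.38, 10.4 and 11.4 CPM in the fresh libraries and 13.9, 27.6 and 33.4 CPM in the preconditioned ones. The groups did not overlap, although preconditioned replicate 1 was much nearer to the fresh libraries than the other 2 were. This gave a log2 fold change of 1.31 (standard error 0.32), with 1.59 when preconditioned replicate 1 was left out and 1.05 when preconditioned replicate 3 was. The 3 genes with a symbol whose log2 CPM followed DHRS3 most closely over the 6 libraries were RTN4RL2, NAPA and EEF1A2 (Pearson's r = 0.9955, 0.9935 and 0.9934), picked as the highest of 11865 genes and given as a description.

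RDH10, the enzyme that oxidises retinol to retinal and so starts the synthesis of retinoic acid, was no member of the set but stood on the list of other pathway genes. It had 71.6, 110 and 70.6 CPM in the fresh libraries and 157, 189 and 149 CPM in the preconditioned ones, without overlap. Its log2 fold change was 0.97 (standard error 0.20, adjusted p = 0.0447 from edgeR), so that it passed the limit on the adjusted p and missed the limit on the fold change. Over 16 alternative settings its adjusted p ran from 0.00109 to 0.154, and it was above 0.05 without any single library other than preconditioned replicate 1, in the fit blocked on the replicate number (adjusted p = 0.0694) and in both limma fits on log2(FPKM + 1) (0.0512 and 0.0864). The ratio of DHRS3 to RDH10 in FPKM was 0.136 to 0.233 in the fresh libraries and 0.127 to 0.322 in the preconditioned ones, which overlap.

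RETSAT, which saturates retinol, was lower in all preconditioned libraries. It had 5.19, 3.91 and 4.49 CPM in the fresh libraries and 2.07, 1.76 and 1.12 CPM in the preconditioned ones. The log2 fold change of −1.45 (standard error 0.32) had an adjusted p of 0.0505 from edgeR and so missed the limit, while 6 of 16 alternatives put it past both limits, over a range of adjusted p from 0.000496 to 0.159. The other oxidoreductases at 1 CPM or more were RDH11, RDH12, RDH14, DHRS4, DHRS9 and SDR16C5, with log2 fold changes from −0.79 to 0.06 and adjusted p values from 0.194 to 0.972. RDH5, matched by its gene identifier, had under 1 CPM.

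**Figure D2:**
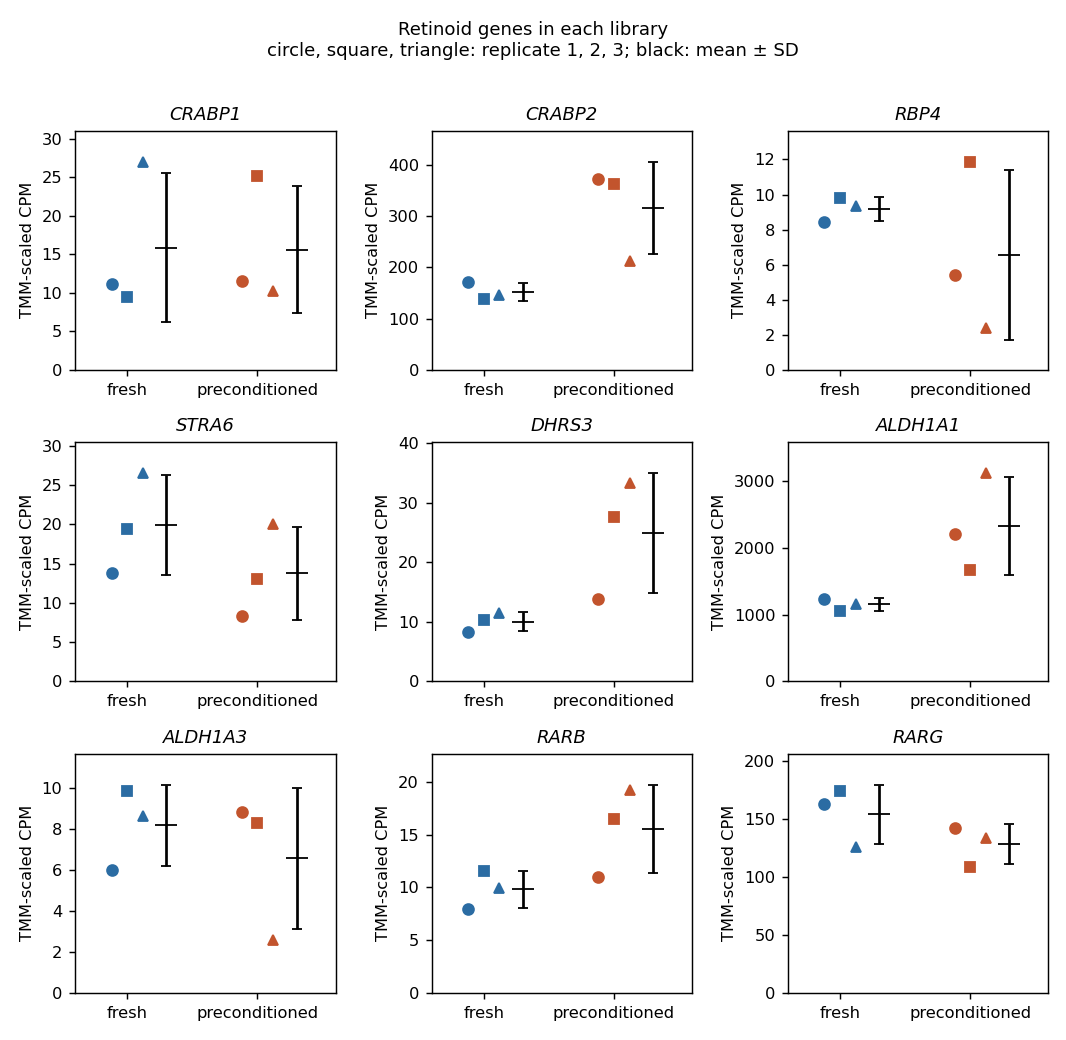
TMM-scaled CPM of the 9 retinoid genes in each library, on linear axes from 0, with blue points for fresh and orange points for preconditioned libraries and the mean ± SD in black. The groups do not overlap for CRABP2, DHRS3 and ALDH1A1, whereas CRABP1 has 1 high library in each group.

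For the synthesis of retinoic acid, ALDH1A1, which oxidises retinal to retinoic acid, had 1241, 1058 and 1163 CPM in the fresh libraries and 2205, 1669 and 3119.5 CPM in the preconditioned ones. All 3 preconditioned libraries were above all fresh libraries, and they differed among themselves more than the fresh ones did (coefficient of variation 31.5% against 7.98%). Between the groups the level differed 2.02-fold, a log2 fold change of 1.01 (standard error 0.23), or 0.75 without preconditioned replicate 3, the highest library. The 11 stromal markers summed to 1353, 2359 and 1316 CPM in preconditioned replicates 1 to 3. In fresh replicates 1 to 3 they summed to 546, 842 and 1175 CPM, so the groups did not overlap. Without COL1A1, in a sum chosen after seeing the data, the other 10 held 815, 1667 and 811 CPM in the preconditioned libraries. In the fresh libraries these 10 held 489.5, 733 and 1067 CPM, which overlap. Among the 11, KERA, the keratocyte marker, had the lowest log2 fold change (−1.27) and COL1A1 the highest (2.66). KERA had 2.86, 2.37 and 0.790 CPM in preconditioned replicates 1 to 3, against 3.25, 2.53 and 8.81 CPM in the fresh libraries. The part of stromal cells in the ALDH1A1 values was not tested.

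ALDH1A3, a second enzyme of the same step, had 6.0, 9.87 and 8.64 CPM in the fresh libraries and 8.83, 8.28 and 2.60 CPM in the preconditioned ones. Preconditioned replicate 3 alone was low, with 79 counts, and the other libraries overlapped. Its log2 fold change of −0.31 (standard error 0.46) changed sign without that library, to 0.07. ALDH1A2, the third enzyme and a gene of the wider list, had 2.52, 4.59 and 13.6 CPM in the fresh libraries and 2.62, 1.38 and 0.527 CPM in the preconditioned ones. It was not called (log2 fold change −2.19, standard error 0.78, adjusted p = 0.118 from edgeR, with 0.0121 to 0.298 over the alternatives), and the log2 fold change was −1.24 without fresh replicate 3, the highest library. Summed over the 3 enzymes in FPKM, ALDH1A1 made up 99.0% to 99.6% in the fresh and 99.7% to 99.9% in the preconditioned libraries. The ratio of ALDH1A1 to ALDH1A3 was 187 to 361 in the fresh libraries and 351 to 2090 in the preconditioned ones.

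For binding inside the cell, CRABP2, which passes retinoic acid to the receptors in the nucleus, had 171, 139 and 145 CPM in the fresh libraries and 372, 364 and 213 CPM in the preconditioned ones. The groups did not overlap, and here preconditioned replicate 3 was the one nearest to the fresh libraries. CRABP2 differed by 1.06 on the log2 scale (standard error 0.22), by 1.28 without that library and by 0.92 without preconditioned replicate 1. CRABP2 was the 1 of 9 genes to meet both limits of the call, beside 2.29% of all tested genes, and DESeq2 put CRABP2, DHRS3 and ALDH1A1 past the same limits, 3 of 9 beside 7.78% of the genes it tested. Since the set was chosen from this contrast, nothing follows from either count. CRABP2 did not meet the limits with library size alone, with the replicate block, in the limma fits or without any one library other than preconditioned replicate 3, and without preconditioned replicate 1 it was ALDH1A1 and DHRS3 that met them. The groups were free of overlap for 3 of the 9, beside 36.7% of all tested genes.

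CRABP1, the other cytosolic carrier, which is known to hold retinoic acid for breakdown, had 11.1, 9.54 and 27.0 CPM in the fresh libraries and 11.5, 25.1 and 10.2 CPM in the preconditioned ones. Each group held 2 libraries near 10 CPM and 1 that was more than 2 times higher. Averaged over libraries the log2 fold change was −0.03 (standard error 0.50), and its sign depended on the setting (0.59 without fresh replicate 3, −0.55 without preconditioned replicate 2). The ratio of CRABP2 to CRABP1 in FPKM ran from 3.53 to 10.1 in the fresh libraries and from 9.49 to 21.3 in the preconditioned ones. FABP5, a fatty acid carrier that can also bring retinoic acid to PPARD, had means of 920 and 740 CPM and was not called (log2 fold change −0.31, adjusted p = 0.471 from edgeR), and a second gene described as FABP5, which could have shared reads with it, had means of 180 and 137 CPM.

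**Figure D3:**
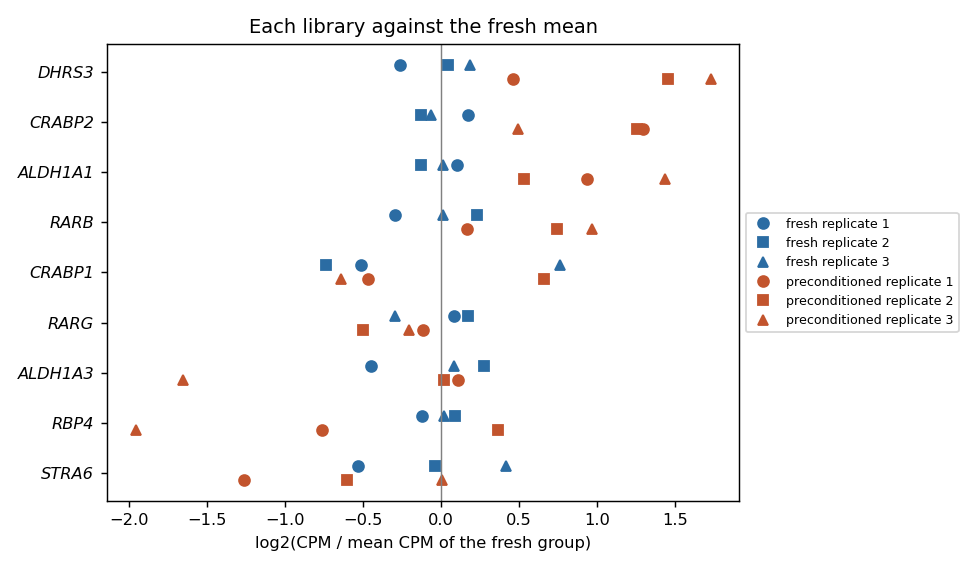
Log2 ratio of each library's CPM to the mean of the fresh group for the 9 retinoid genes, ordered by fold change, with symbols for replicates 1 to 3 (blue, fresh; orange, preconditioned). Preconditioned replicate 3 is the highest library for DHRS3, ALDH1A1 and RARB (1.73, 1.44 and 0.97) and the lowest for RBP4 and ALDH1A3 (−1.96 and −1.65).

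Among the receptors, RARB, a receptor whose own gene is known as a target of retinoic acid, had 8.0, 11.5 and 9.93 CPM in the fresh libraries and 11.0, 16.5 and 19.2 CPM in the preconditioned ones. The groups overlapped only through preconditioned replicate 1, which lay just under fresh replicate 2. Over all libraries the log2 fold change was 0.66 (standard error 0.25), and it was 0.85 without preconditioned replicate 1.

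RARG, the main retinoic acid receptor of stratified epithelium, had 163, 174 and 125 CPM in the fresh libraries and 142, 109 and 134 CPM in the preconditioned ones, which overlapped. Fresh replicate 3 lay within the preconditioned range, and the log2 fold change was −0.26 (standard error 0.16), or −0.16 without preconditioned replicate 2 and −0.40 without fresh replicate 3. A second gene without a symbol is described as retinoic acid receptor gamma, and reads could have been shared with it. The RARG row held 77.1% to 82.9% of the counts of both in every library, and with both rows summed the log2 fold change was −0.32. Of the FPKM of RARA, RARB and RARG, the last made up 88.5% to 92.0% in the fresh libraries and 83.5% to 90.5% in the preconditioned ones, and RARB 3.25% to 5.05% and 5.04% to 9.09%. RARA had means of 18.7 and 16.0 CPM (log2 fold change −0.22, adjusted p = 0.442 from edgeR). Among partners, RXRB had means of 24.0 and 25.0 CPM (adjusted p = 0.804), RXRG did not pass the filter on low counts, and RXRA was not analysed here.

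PPARD, a nuclear receptor that binds retinoic acid as well as fatty acids, had means of 116 and 160 CPM with no overlap (log2 fold change 0.47, standard error 0.12, adjusted p = 0.0585 from edgeR). The coregulators NCOR1, NCOA1, NCOA2, NCOA3 and NRIP1 had log2 fold changes from −0.31 to 0.17 and adjusted p values from 0.11 to 0.962. None of the receptors or coregulators on the wider list was called by edgeR or DESeq2, while 3 of them had an unadjusted p under 0.05, PPARD and NCOA1 included.

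**Figure D4:**
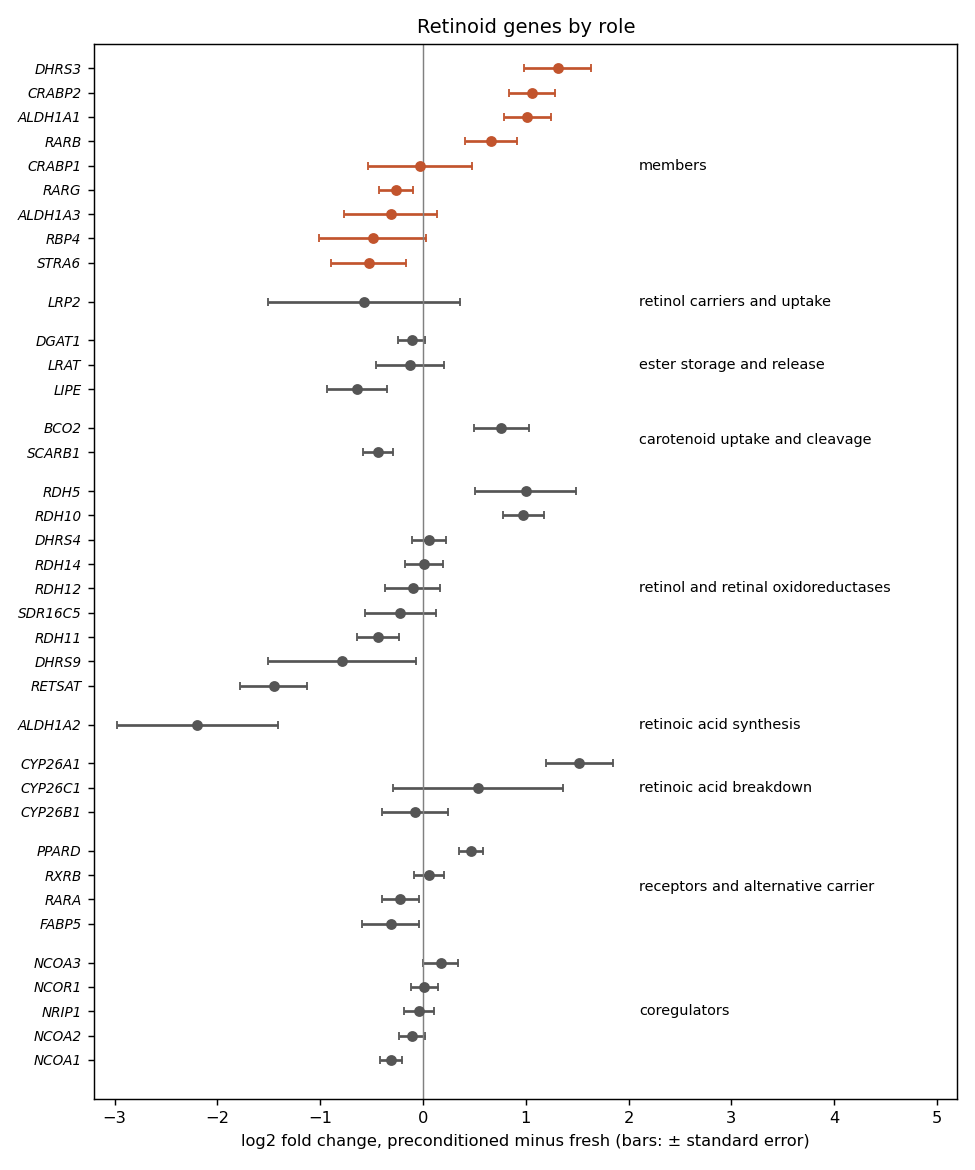
Log2 fold change (preconditioned minus fresh) with its standard error for the 9 retinoid genes (orange) and 28 of the other tested pathway genes (grey), grouped by role. CYP26A1 at 1.52 has the highest and ALDH1A2 at −2.19 the lowest value.

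On the side of breakdown, CYP26A1, the enzyme that degrades retinoic acid and a well-known gene induced by it, was listed without its symbol and was found by its gene identifier. It had 4.2, 8.44 and 6.92 CPM in the fresh libraries and 14.1, 16.8 and 25.2 CPM in the preconditioned ones. All preconditioned libraries were above all fresh ones, with replicate 3 the highest. CYP26A1 rose 2.87-fold (log2 fold change 1.52 ± 0.33 SE, with an edgeR adjusted p of 0.0471). It kept its direction in all 16 alternatives, at log2 fold changes from 1.10 to 1.74, and passed both limits in 7 of them. The sum of both RARG rows is 1 of these 7, and it left CYP26A1 at its main value. The adjusted p was 0.106 to 0.148 without any one of the 3 fresh libraries or preconditioned replicates 2 and 3, 0.0172 without preconditioned replicate 1, 0.0801 in the fit blocked on the replicate number, 0.0502 to 0.087 in the limma fits and 0.00027 with DESeq2, the lowest of all alternatives. CYP26B1, a related enzyme, overlapped between the groups, with means of 20.4 and 19.4 CPM (log2 fold change −0.08, standard error 0.32, adjusted p = 0.896). Per length, CYP26A1 stood at 2.83 and 7.22 FPKM and CYP26B1 at 4.71 and 3.95 FPKM on average. CYP26C1 had under 1 CPM in both groups.

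Of the 48 other pathway genes listed, 35 were found in the table and 30 passed the filter on low counts. CYP26A1 was the only one called, so 1 of 30 was called higher and 0 were called lower by edgeR, beside 1.08% and 1.20% of all tested genes. The median log2 fold change of the 30 was −0.11, and that of all tested genes was 0.01. For 10 of the 30 no library of one group lay within the range of the other, and 9 had an unadjusted p under 0.05, beside 36.7% and 30.6% of all tested genes. DESeq2 called ALDH1A2 and RETSAT lower in addition to CYP26A1. Genes of storage and of carotenoid use were among the uncalled. LRAT, which stores retinol as ester, had means of 164 and 150 CPM (adjusted p = 0.822 from edgeR), DGAT1 of 29.5 and 27.3 CPM (adjusted p = 0.602) and LIPE of 4.31 and 2.76 CPM (adjusted p = 0.183). BCO2, a carotenoid cleaving enzyme, had means of 10.2 and 17.3 CPM (log2 fold change 0.76, adjusted p = 0.11), and SCARB1, a receptor that takes up carotenoids, of 44.4 and 32.9 CPM (log2 fold change −0.43, adjusted p = 0.102).

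**Figure D5:**
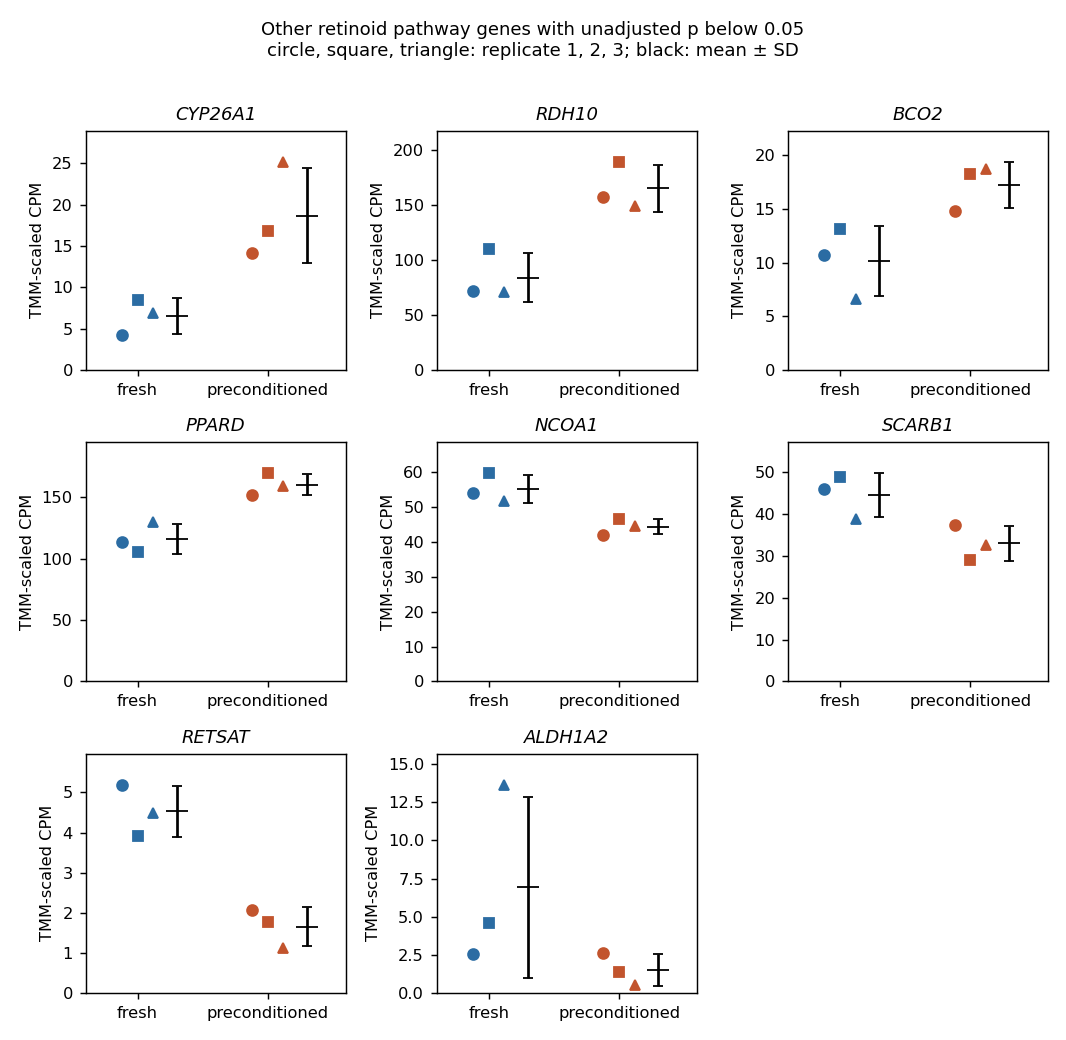
TMM-scaled CPM per library, on linear axes from 0, of 8 of the 9 other pathway genes with an unadjusted p under 0.05, ordered by fold change, with the mean ± SD in black. The groups overlap only for ALDH1A2, which has 1 high fresh library. CYP26A1 (4.2 to 8.44 against 14.1 to 25.2 CPM), RDH10, BCO2 and PPARD are higher in every preconditioned library, and NCOA1, SCARB1 and RETSAT are lower.

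Genes known to respond to retinoic acid in epithelia were counted next. The list of 12 genes known to be induced by it did not hold CYP26A1, DHRS3 and RARB, which retinoic acid also induces and whose values are given above. Of the 12, 8 could be tested and none was called by edgeR or by DESeq2, with 1 at an unadjusted p under 0.05. That gene was MUC4, a membrane mucin, at 536, 2055 and 309 CPM in the fresh libraries and 412, 219 and 114 CPM in the preconditioned ones (log2 fold change −1.96, standard error 0.79, adjusted p = 0.151 from edgeR). Fresh replicate 2 was far above the rest. KRT19, KRT13, KRT4, RARRES2, HBEGF, TGM2 and CD38 had log2 fold changes from −1.21 to 1.46 and adjusted p values from 0.296 to 0.962. The median log2 fold change of the 8 was −0.20, beside 0.01 for all tested genes.

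Of 11 keratinisation and corneal keratin genes that retinoic acid is known to lower, 5 could be tested and none was called by edgeR, with 2 at an unadjusted p under 0.05. TGM1, the transglutaminase of the cornified envelope, had 13.8, 12.9 and 7.25 CPM in the fresh libraries and 26.3, 24.6 and 19.5 CPM in the preconditioned ones, without overlap (log2 fold change 1.05, standard error 0.27, adjusted p = 0.0593 from edgeR), and it was the 1 gene of this list called by DESeq2 (adjusted p = 0.00456, while edgeR without a filter on low counts gave 0.0471). KRT10, a keratin of cornifying epithelium, had means of 26.0 and 40.0 CPM, without overlap (log2 fold change 0.62, adjusted p = 0.0615). IVL, KRT3 and KRT1 had log2 fold changes of −1.18, −1.21 and −0.03 with adjusted p values of 0.401, 0.296 and 0.941, and the groups overlapped for all 3. FLG, FLG2 and LORICRIN, the genes of skin-type cornification, did not pass the filter on low counts.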

How the data were processed

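RNA-seq was performed on 6 libraries of rabbit LSC outgrowths, 3 per group, grouped by their titles in the labels. The authors aligned reads with hisat2 and deposited gene counts from htseq-count, not normalized. The authors also deposited FPKM, counts per library total and gene length. How length was defined, the genome build, the annotation and the strand setting are not given in the sources used here. R 4.3.3 and edgeR 4.0.16 were used on the counts (filterByExpr, TMM, robust quasi-likelihood test, group as the only factor) in place of the study's DESeq2. Adjusted p values are by Benjamini-Hochberg, and standard errors were derived from the F statistic. Listed genes were matched by symbol, then by NCBI gene identifier through RefSeq's table of assembly mOryCun1.1 (19462 of 22177 identifiers found, no coordinates used), then by description. Matching by identifier was added after CYP26 genes were found without symbols.

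The members and lists were chosen with earlier results of these data known. Named were all members, called genes of the lists, each listed retinoid or responsive gene at 1 CPM or more in either group, the 3 markers per list with the highest CPM and the 3 genes closest to the member with the largest fold change, and any other named gene was picked after its values were seen. A few listed genes entered the counts and sums but are not reported here by name. Tried as alternatives were DESeq2 1.42.0 and its size factors, scaling by library size only, 2 further low-count filters, a replicate block, each library left out, limma 3.58.1 (trend) on log2(FPKM + 1) and log2(FPKM + 0.1), and no fold limit. The fits were tested on simulated data with known changes. At 31952352 counts or more per library, every member had at least 72 counts in each library. Some other named genes rested on fewer, such as CD38 with 5 counts in preconditioned replicate 3. How far depth or the spread between libraries limited the precision for each gene was not tested.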

Additional observations from a re-analysis of the deposited data

How the results depend on the processing

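The log2 fold changes of 7 of the 9 members kept their sign in all 16 alternatives but not their size, with ranges of 0.85 to 1.28 for CRABP2, 0.94 to 1.59 for DHRS3, 0.75 to 1.21 for ALDH1A1, 0.36 to 0.85 for RARB, −1.24 to −0.09 for RBP4, −0.90 to −0.27 for STRA6 and −0.43 to −0.16 for RARG. The exceptions were CRABP1 (−0.55 to 0.59) and ALDH1A3 (−0.60 to 0.07). Summing both RARG rows and matching by identifier were chosen after seeing the data. This sum is 1 of the 16 alternatives and left every member but RARG at its main log2 fold change. Where a count below changed with a setting, the cause was not tested.

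The members meeting both limits numbered 1 of 9, and 344 genes were called in all (163 higher, 181 lower). DESeq2 gave 3 members, 3 other pathway genes, 1 keratinisation gene and 1190 genes in all. Library size alone gave 0 members, 2 other pathway genes and 565 genes (142 higher, 423 lower), with the median log2 fold change of all genes at −0.16. Without a filter on low counts there were 3 members, 2 other pathway genes and 1 keratinisation gene, and with at least 1 CPM in 3 libraries 2 members and 2 other pathway genes. The limma fits gave 0 members each, with 590 genes on log2(FPKM + 0.1), and on log2(FPKM + 1) 0 other pathway genes with or without the filter, and 30 genes in all without it. With no fold limit there were 2 other pathway genes and 763 genes. Leaving out each library gave 0 to 2 members (CRABP2 without preconditioned replicate 3, ALDH1A1 and DHRS3 without preconditioned replicate 1), 0 to 2 other pathway genes and 14 to 1546 genes in all. No alternative called a gene of the retinoic acid-induced list.

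With the replicate number as a block, 0 members, 0 other pathway genes and 30 genes were called. The labels give no source for a pairing, libraries of the same number did not deviate together (r = −0.067, −0.073 and −0.109 across genes), and 0 of 6 libraries correlated best with its own number. The limit of depth is small for the members, since the lowest count of a member was 72.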
